A study of Mus musculus with 34 samples.

Results

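The genes described here are 30 genes that astrocytes of the mouse brain are known to use more than neurons do, from glutamate transporters and connexins to water channels, metabolic enzymes and the transcription factor Sox9. They were taken by symbol from the bulk RNA-seq table of the series, in which 30 of 30 were found among 54532 genes. They are picked by symbol and not by a threshold on any measured value, although results of these data were known when the list was drawn up.

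Astrocytes take up the glutamate and potassium that neurons release, convert glutamate to glutamine, pass ions and metabolites to each other through gap junctions and contact blood vessels with end-feet that are rich in water channels. They also hold most of the glycogen of the brain, which can be broken down to lactate when neurons are active. Some of the 30 genes are used by other cells too: Mertk by microglia, Ednrb by vessels, and Fabp7 and Sox9 by the neural stem cells of the dentate gyrus.

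Each library holds the RNA of the dorsal hippocampus from 1 male mouse of the C57BL/6J strain, aged 2 to 3 months. The SOR group (n = 4) was trained in spatial object recognition, in which mice explore an arena with objects at fixed places, and was euthanized 1 h after the last training trial. The homecage group (n = 4) was not trained and was taken at the same time of day. No group carried a transgene or drug, and both groups were of 1 strain and 1 sex, which limits what they stand for. The question that the comparison addresses here is whether the astrocyte transcripts of the whole dorsal hippocampus differed 1 h after SOR training. No group explored the arena without such training, so learning cannot be told apart from exposure to the arena.

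Total estimated counts ranged from 51406011 to 81525977 per library, and the 30 genes together took 0.746% to 0.822% of them. Training was visible in the libraries. Of 10 immediate early genes, which neurons switch on within minutes of activity, 9 rose past an adjusted p of 0.05. Their median log2 fold change was 1.15, and 0.309% of all genes passed in either direction. These immediate early genes were chosen with earlier results of these data known, so their rise is no independent check. Fos, a transcription factor of this class, was at 4.54, 2.60, 4.59 and 2.47 CPM (estimated counts per 1000000 scaled counts of the library) in homecage replicates 1 to 4 and at 11.1, 12.03, 15.1 and 14.2 CPM in SOR replicates 1 to 4. Libraries stood apart in markers of ependyma and choroid plexus, the tissue that secretes cerebrospinal fluid: the 10 markers summed to 52.5 to 1119 CPM in the homecage group and to 70.2 to 4002 CPM in the SOR group, with the highest sum in SOR replicate 1. Ttr, the main transcript of choroid plexus, was at 4.04 to 997 CPM in homecage and at 20.8 to 3710 CPM in SOR libraries. All 15 neuron markers were measured in every library, with sums of 7125 to 7759 CPM in homecage and 7228 to 7744 CPM in SOR.

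The sequence upstream of a gene is where many factors that set its transcription bind. Upstream windows of 200 bases, from 250 to 51 bases before the start that RefSeq gives, were at hand for 26 of the 30 genes, and none was used for Aqp4, Atp1b2, Slc14a1 and Sox9. Shown are the windows of the 3 genes whose SOR values lay beyond all homecage values and that have a window, in the direction of transcription on GRCm38.p6. Fabp7 lies at chr10:57784673-57784872 on the plus strand, Gjb6 at chr14:57133662-57133861 on the minus strand and Ppp1r3c at chr19:36736655-36736854 on the minus strand. Capitals mark matches to any of 6 motifs.
Fabp7: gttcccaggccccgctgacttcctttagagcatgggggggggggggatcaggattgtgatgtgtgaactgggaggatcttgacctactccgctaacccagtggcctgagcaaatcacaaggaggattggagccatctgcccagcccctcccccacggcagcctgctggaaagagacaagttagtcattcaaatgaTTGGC
Gjb6: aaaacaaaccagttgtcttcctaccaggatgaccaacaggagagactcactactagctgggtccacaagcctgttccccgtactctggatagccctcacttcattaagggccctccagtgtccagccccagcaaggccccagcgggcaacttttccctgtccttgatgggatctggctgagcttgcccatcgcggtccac
Ppp1r3c: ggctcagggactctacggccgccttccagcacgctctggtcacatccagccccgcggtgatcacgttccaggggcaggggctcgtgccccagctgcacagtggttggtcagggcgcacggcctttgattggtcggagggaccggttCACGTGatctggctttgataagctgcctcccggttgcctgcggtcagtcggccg

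The 6 motifs, read on both strands, were the E-box CACGTG, the core of the cyclic AMP response element TGACG, the core of the glucocorticoid response element ACANNNTGT, the STAT site TTCNNNGAA, the NFI core TTGGC and the EGR site GCGTGGGCG. Ppp1r3c held the E-box at 104 to 99 bases before its start, a match found in 4.34% of 32851 windows of the same length over all genes. Fabp7 held the NFI core at 55 to 51 bases before its start, which 34.9% of all windows hold. Gjb6 held none of the 6 sets of letters. Over the 30 windows of the 26 genes, 12 held the NFI core, 4 the STAT site (5.76% of all windows), 3 the cyclic AMP core (12.7%), 2 the E-box, 2 the glucocorticoid core (4.79%) and 0 the EGR site (0.353%). A match is a description of letters and not a site of binding.

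Over the 30 astrocyte genes, none passed the test between SOR and homecage, and most lay close to no difference. The log2 fold change was above 0 for 15 genes and below 0 for 15, with a median of 0.01, where 43.8% of the 22018 genes tested were above 0 and their median was -0.02. By the quasi-likelihood test of edgeR, with p adjusted by Benjamini-Hochberg over the whole table, 0 of 30 were past an adjusted p of 0.05 and a fold change of 1.4, a rule that called 0.173% of all genes. Without the fold change rule the count was also 0 of 30, beside 0.309% of all genes. The lowest adjusted p was 0.168, of Gjb6.

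At an unadjusted p under 0.05 there were 7 of 30 genes (23.3%), beside 10.1% of all genes. The groups did not overlap for 4 of 30 genes (13.3%), beside 6.95% of all genes. Of these 4, Gjb6 and Ppp1r3c were higher in SOR, as were 2.99% of all genes, and Fabp7 and Sox9 were lower, as were 3.96% of all genes. Lack of overlap by itself sets the two-sided exact permutation p of these 4 genes at 0.0286, the smallest that 70 assignments of 4 against 4 mice can give. The other 26 had exact p from 0.0571 to 0.943. These p were not adjusted over the 30 genes.

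The count of 0 depended on the test and model used. DESeq2 put 3 of the 30 past an adjusted p of 0.05, Gjb6 (0.00601), Ppp1r3c (0.0121) and F3 (0.0185). It called 2.68% of the 16464 genes to which it gave an adjusted p, fewer genes than the 22018 of the other tests. The likelihood ratio test of edgeR put Gjb6 there (0.0235) and called 0.972% of all genes. With 3 RUVs factors, which stand for unwanted variation between libraries, Ppp1r3c had an adjusted p of 0.0475 in edgeR and 0.418% of all genes were called. With limma-voom 0 of the 30 passed, and it called 0.286% of all genes.

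The precision was enough to bound most of the differences. For 29 of 30 genes the 95% interval of the edgeR fold change lay inside a change of 1.4 in either direction, the exception being Gjb6, and 20 of 30 were within 0.1 of 0 on the log2 scale. The lowest estimated count of any of the 30 genes in a library was 457, of Sox9. In bulk tissue, fewer astrocytes and less RNA per astrocyte cannot be told apart.

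**Figure D1:**
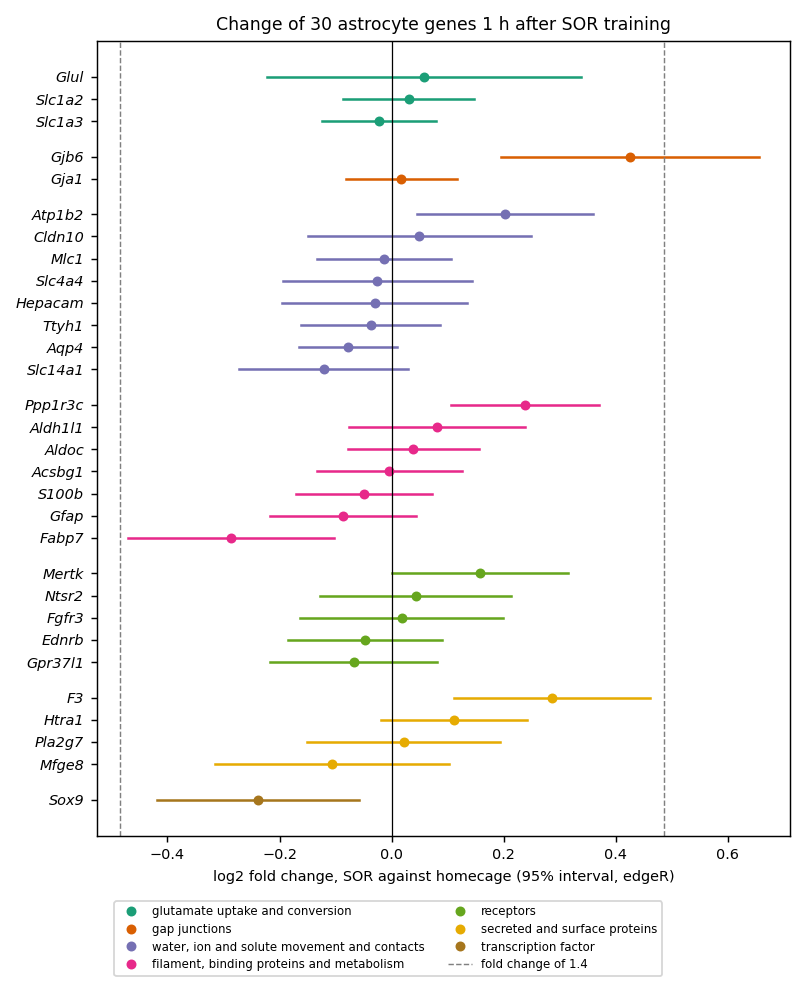
Log2 fold change of each of the 30 astrocyte genes, SOR against homecage (x axis), with the 95% interval of the edgeR fit (bars), grouped by role (colours). Dashed lines mark a fold change of 1.4: the interval of Gjb6 is the only one that crosses one of them.

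The 3 genes that handle glutamate differed little between the groups. Slc1a2, the main glutamate transporter of the forebrain, was at 2354 ± 47.0 CPM (SD, n = 4) in homecage and 2404 ± 166 CPM (SD, n = 4) in SOR, a difference of 2.11% with a 95% interval of -5.88% to 10.8%. Slc1a3, the other glial transporter of glutamate, differed by -1.52% (95% interval -8.22% to 5.67%). Glul, the synthetase that turns glutamate into glutamine, had the widest spread of the 30 genes, with coefficients of variation of 12.9% in homecage and 16.9% in SOR. It was lowest in homecage replicate 3 at 1339 CPM and in SOR replicate 2 at 1281 CPM, while the other libraries lay higher, and its interval of -14.3% to 26.4% was the widest of this group.

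The connexins build the gap junctions that join astrocytes, and both connexins among the 30 genes had log2 fold changes above 0, neither past the test. Gjb6, which encodes connexin 30 (ENSMUSG00000040055, chromosome 14, 57123303 to 57133611, minus strand, GRCm38), was at 29.2, 26.3, 27.3 and 32.6 CPM in homecage replicates 1 to 4. In SOR replicates 1 to 4 it was at 46.4, 33.4, 35.2 and 39.9 CPM. Every SOR value was above every homecage value, and SOR replicate 1 was the highest of the 8. The means were 28.9 ± 2.78 and 38.7 ± 5.79 CPM (SD, n = 4 each), a log2 fold change of 0.43 (SE 0.10) or 34.3% (95% interval 14.5% to 57.5%), with an adjusted p of 0.168 in edgeR.

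The replicate with the highest Gjb6, SOR replicate 1, also had the highest sum of ependymal and choroid plexus markers. That sum was mostly Ttr, so it mainly reflects choroid plexus and not ependyma. In the homecage group those markers summed to 1119, 52.5, 96.8 and 899.9 CPM in replicates 1 to 4. Gjb6 was at 29.2, 26.3, 27.3 and 32.6 CPM there, so homecage replicates 1 and 4 were the higher in both. In SOR replicates 2 and 3, where the markers summed to 904 and 812 CPM, Gjb6 was at its lowest SOR levels. Without SOR replicate 1 the log2 fold change of Gjb6 was 0.32 with an adjusted p of 0.230 in edgeR. In SOR replicate 4, where the markers summed to 70.2 CPM, Gjb6 was at 39.9 CPM. The part of these cells in the level of Gjb6 was not tested. Gja1, which encodes connexin 43 and is the more abundant per length, differed by 1.19% (95% interval -5.50% to 8.35%).

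Of 12 other connexin and pannexin genes that could be tested, 6 were higher and 6 lower, with a median of -0.05 and none past an adjusted p of 0.05. Among those of lowest p was Gja3, with a log2 fold change of 0.68 (adjusted p = 0.382 in edgeR). Gja3 was at no more than 0.808 CPM in any library, so its fold change rests on a low level.

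The 8 genes that move water, ions or solutes or hold astrocyte contacts together were 2 higher and 6 lower in SOR, with a median of -0.03. Atp1b2, the beta subunit of the sodium and potassium pump that glia use (ENSMUSG00000041329, chromosome 11, 69599736 to 69605942, minus strand), was at 34.9, 37.7, 36.2 and 42.2 CPM in homecage replicates 1 to 4. In SOR replicates 1 to 4 it was at 39.8, 46.7, 42.2 and 45.4 CPM. The groups overlapped, since homecage replicate 4 lay above SOR replicates 1 and 3. Its log2 fold change was 0.20 (SE 0.07), with an adjusted p of 0.365 in edgeR.

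Aqp4 encodes the water channel of the astrocyte end-foot (ENSMUSG00000024411, chromosome 18, 15389496 to 15410982, minus strand). It was at 212, 204, 217 and 211 CPM in homecage replicates 1 to 4 and at 204, 207, 189 and 199 CPM in SOR replicates 1 to 4. Homecage replicate 2 lay below SOR replicates 1 and 2, so the groups overlapped, and the difference of -5.27% had a 95% interval of -10.9% to 0.673% and an adjusted p of 0.548 in edgeR. The other 6 genes of the group had log2 fold changes from -0.12 to 0.05: Slc14a1, a urea transporter, was the lowest, and Cldn10, a tight junction protein, the highest. Mlc1 and Hepacam, membrane proteins that act together at astrocyte junctions, differed by -0.949% and -2.09%. Slc4a4, the sodium bicarbonate cotransporter, and Ttyh1, a membrane protein of the tweety family, differed by -1.76% and -2.57%.

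Of 20 further genes for amino acid transmitter uptake and potassium buffering, 9 were higher and 11 lower, with a median of -0.01 and none past an adjusted p of 0.05. The lowest p were those of Slc38a5, a glutamine transporter, with a log2 fold change of -0.38 (adjusted p = 0.439 in edgeR), and Kcnj16, an inward rectifier channel subunit, with -0.23 (adjusted p = 0.551 in edgeR). These channels and transporters thus gave no call on either side.

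The 7 genes that encode the filament protein, binding proteins and metabolic enzymes of astrocytes were 3 higher and 4 lower in SOR. Ppp1r3c, a subunit that brings protein phosphatase 1 to glycogen and promotes glycogen synthesis (ENSMUSG00000067279, chromosome 19, 36731731 to 36736653, minus strand), was at 73.6, 78.3, 84.2 and 82.6 CPM in homecage replicates 1 to 4. In SOR replicates 1 to 4 it was at 102, 96.5, 90.8 and 86.6 CPM. The SOR values all lay above the homecage values, with the lowest SOR value, of replicate 4, close to the highest homecage value. The log2 fold change was 0.24 (SE 0.06), or 18.0% with a 95% interval of 7.67% to 29.3%, and the adjusted p was 0.176 in edgeR.

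Glycogen and lactate genes were read beside Ppp1r3c. Of 26 tested, 17 were higher and 9 lower in SOR, with a median log2 fold change of 0.03. Of the 26, 1 was past an adjusted p of 0.05, beside 0.309% of all genes. That gene, Slc2a1, the glucose transporter of vessels and astrocytes, was at 23.8, 22.9, 25.8 and 26.8 CPM in homecage replicates 1 to 4 and at 32.7, 32.2, 30.4 and 33.0 CPM in SOR replicates 1 to 4. It rose by 29.2% without overlap between the groups, with a log2 fold change of 0.37 (SE 0.06) and an adjusted p of 0.0403 in edgeR. Its adjusted p was 0.0582 to 0.138 when any 1 of the 8 libraries was left out, 0.0529 with library size scaling or with 1 RUVs factor, 0.0710 with 3 RUVs factors and 0.135 with the replicate number as a block. Without overlap, 2 of the 26 were higher, Slc2a1 and Ppp1r3g, and 1 was lower, Epm2a, beside 2.99% and 3.96% of all genes. Ppp1r3g, of the same family as Ppp1r3c, had a log2 fold change of 0.60 (adjusted p = 0.0633 in edgeR). That of Epm2a was -0.21 (adjusted p = 0.241 in edgeR), and both were named after their values were seen. Of 12 endothelial and mural markers, 5 were higher and 7 lower, with a median of -0.04, none past an adjusted p of 0.05, and sums of 251 to 299 CPM in homecage and 268 to 281 CPM in SOR.

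Fabp7, a fatty acid binding protein of astrocytes and neural stem cells (ENSMUSG00000019874, chromosome 10, 57784881 to 57788450, plus strand), was the member with the lowest log2 fold change. It was at 16.6, 15.1, 17.6 and 15.99 CPM in homecage replicates 1 to 4 and at 13.6, 14.7, 13.4 and 11.8 CPM in SOR replicates 1 to 4. Every SOR value was below every homecage value, though SOR replicate 2 and homecage replicate 2 were near each other. The log2 fold change was -0.29 (SE 0.08), a difference of -18.0% with a 95% interval of -27.8% to -6.85%, and the adjusted p was 0.258 in edgeR.

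The other 5 genes of this group stayed within 0.09 of 0 on the log2 scale. Gfap, the intermediate filament protein whose level is used as a sign of astrocyte reaction, was at 324 ± 16.3 CPM in homecage and 305 ± 22.6 CPM in SOR (SD, n = 4 each), with a 95% interval of the difference of -13.9% to 3.04%. S100b, a calcium binding protein, differed by -3.39%, and Aldoc, the brain form of aldolase, by 2.72%. Aldh1l1, a folate enzyme used as an astrocyte label, differed by 5.73% and Acsbg1, an acyl-CoA synthetase, by -0.272%.

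Genes that astrocytes are known to raise upon injury or inflammation were read beside Gfap. Of 32 reactive genes tested, 16 were higher and 16 lower, with a median of -0.01 and none past an adjusted p of 0.05. Without overlap, 2 of the 32 were higher, Hspb1 and Osmr, and 0 were lower, beside 2.99% and 3.96% of all genes. Hspb1, a small heat shock protein, was at 3.76, 2.75, 3.13 and 3.41 CPM in homecage replicates 1 to 4. In SOR replicates 1 to 4 it was at 14.03, 4.63, 5.35 and 4.73 CPM. Its log2 fold change was 1.15 (adjusted p = 0.266 in edgeR). SOR replicate 1 lay far above the other 3 trained mice. Osmr, the receptor for oncostatin M, had a log2 fold change of 0.37 (adjusted p = 0.315 in edgeR).

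**Figure D2:**
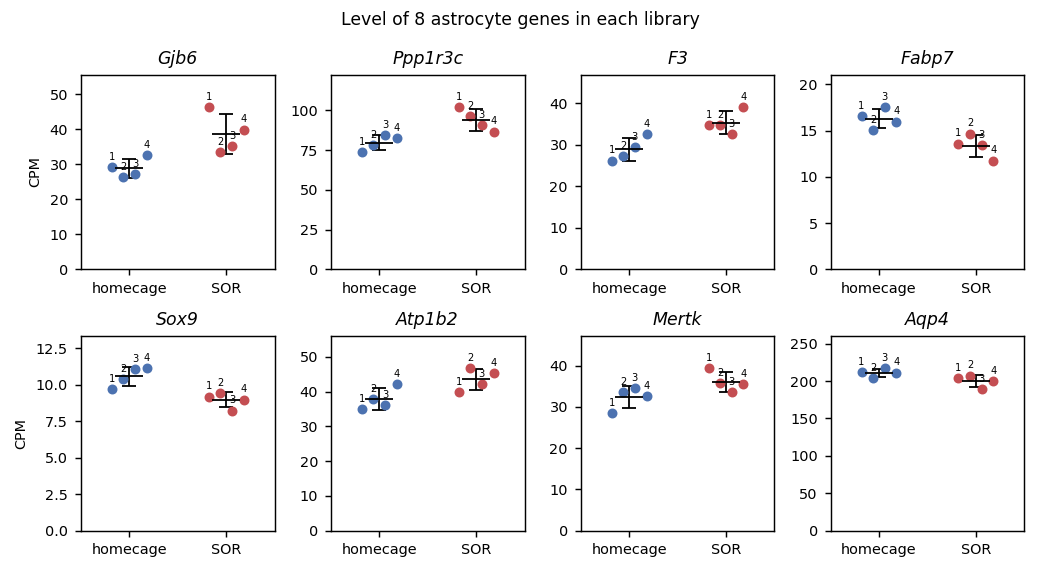
CPM (y axis, from 0) of 8 astrocyte genes in each homecage (blue) and SOR (red) library, numbered by replicate, with the mean and SD of each group. The points of Gjb6 and Ppp1r3c lie higher in SOR and those of Fabp7 and Sox9 lower without overlap, while F3, Atp1b2, Mertk and Aqp4 overlap.

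There are 5 receptors among the 30 genes, 3 higher and 2 lower, with a median of 0.02. Mertk, a kinase that takes part in the engulfment of synapses and cell debris (ENSMUSG00000014361, chromosome 2, 128698956 to 128802894, plus strand), was at 28.5, 33.6, 34.6 and 32.7 CPM in homecage replicates 1 to 4. In SOR replicates 1 to 4 it was at 39.3, 35.7, 33.7 and 35.5 CPM. SOR replicate 3 lay below homecage replicate 3, so the groups overlapped, and the log2 fold change was 0.16 (SE 0.07) with an adjusted p of 0.493 in edgeR. Of 12 microglia markers 2 were higher and 10 lower, with a median of -0.09 and sums of 340 to 390 CPM in homecage and 331 to 371 CPM in SOR. The part of microglia in the level of Mertk was not tested.

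The 4 other receptors had log2 fold changes between -0.07 and 0.04. Fgfr3, a receptor of fibroblast growth factors, differed by 1.23% and Ednrb, a receptor of endothelins, by -3.26%. Ntsr2, a receptor of neurotensin, differed by 3.01% and Gpr37l1, a G protein-coupled receptor of glia, by -4.59%. The intervals of all 4 included 0.

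Another 4 genes are secreted or act at the cell surface. F3, the tissue factor that starts blood clotting (ENSMUSG00000028128, chromosome 3, 121723537 to 121735048, plus strand), was at 26.2, 27.4, 29.5 and 32.6 CPM in homecage replicates 1 to 4. In SOR replicates 1 to 4 it was at 34.8, 34.7, 32.6 and 39.1 CPM. The groups touched, as SOR replicate 3 and homecage replicate 4 were level, while the other SOR values were above all homecage values. The log2 fold change was 0.29 (SE 0.08), or 21.9% with a 95% interval of 8.06% to 37.6%, and the adjusted p was 0.225 in edgeR.

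Htra1, a secreted serine protease, had a log2 fold change of 0.11 (SE 0.06), and Pla2g7, which breaks down platelet-activating factor, had 0.02 (SE 0.08). Mfge8, a secreted protein that tags cells for engulfment, was at 85.9 ± 1.43 CPM in homecage and 79.8 ± 12.6 CPM in SOR (SD, n = 4 each). SOR replicate 4 was the lowest library at 62.8 CPM, and the log2 fold change was -0.11 with an SE of 0.09.

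Sox9, a transcription factor that astrocytes keep from their progenitors (ENSMUSG00000000567, chromosome 11, 112782224 to 112787760, plus strand), was at 9.71, 10.3, 11.0 and 11.1 CPM in homecage replicates 1 to 4. In SOR replicates 1 to 4 it was at 9.17, 9.42, 8.23 and 8.98 CPM. The SOR values all lay below the homecage values, though homecage replicate 1 was close to them. The log2 fold change was -0.24 (SE 0.08), a difference of -15.2% with a 95% interval of -25.2% to -3.91%, and the adjusted p was 0.359 in edgeR.

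Both Fabp7 and Sox9, the 2 genes lower in SOR without overlap, are also used by neural stem cells. Of 10 markers of radial glia and neural stem cells 6 were higher and 4 lower, with a median of 0.02 and none past an adjusted p of 0.05. They summed to 157 to 167 CPM in homecage and 151 to 176 CPM in SOR. Without overlap, 1 of these 10 markers was higher in SOR and 0 were lower, beside 2.99% and 3.96% of all genes. The markers with the lowest p were Sox11 with a log2 fold change of 0.20 (adjusted p = 0.304 in edgeR) and Dcx with -0.21 (adjusted p = 0.626 in edgeR), both of which mark newly formed neurons. Sox2, one of the regulators given below, was also lower in SOR without overlap. Its log2 fold change was -0.25 (adjusted p = 0.276 in edgeR), and it was named after its value was seen. The part of stem cells in the levels of Fabp7 and Sox9 was not tested.

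Of 18 other regulators of transcription known from astroglia, 10 were higher and 8 lower, with a median of 0.01. At an unadjusted p under 0.05 in edgeR there were 6 of 18, beside 10.1% of all genes. Without overlap, 1 was higher (Hey2, beside 2.99% of all genes) and 3 were lower (Sox2, Hey1 and Id2, beside 3.96%). Sox2, Hey1 and Id2, named after their values were seen, had log2 fold changes of -0.25, -0.14 and -0.19, none past an adjusted p of 0.05. Hey2, a repressor of transcription, was the 1 of 18 past an adjusted p of 0.05, beside 0.309% of all genes. It was at 2.997, 2.68, 2.57 and 2.85 CPM in homecage replicates 1 to 4 and at 6.52, 4.96, 4.51 and 4.79 CPM in SOR replicates 1 to 4. It rose by 87.5%, with a log2 fold change of 0.91 (SE 0.13) and an adjusted p of 0.0212 in edgeR. The adjusted p was 0.0530 to 0.0860 when SOR replicate 2 or any 1 of the 4 homecage replicates was left out.

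A list of 50 further astrocyte genes, of which 49 could be tested, served as a wider view of the same cells. Of these 23 were higher and 26 lower, with a median of -0.01, and their summed level was 6848 to 7275 CPM in homecage and 6809 to 7430 CPM in SOR. At an adjusted p under 0.05 there was 1 of 49, beside 0.309% of all genes. This was Dio2, the enzyme by which astrocytes turn thyroxine into active thyroid hormone. It was at 78.2, 77.1, 77.9 and 73.7 CPM in homecage replicates 1 to 4 and at 105, 96.7, 95.5 and 91.2 CPM in SOR replicates 1 to 4. It rose by 26.6%, with a log2 fold change of 0.34 (SE 0.05) and an adjusted p of 0.0144 in edgeR. The adjusted p was 0.0783, 0.0527 and 0.0818 without homecage replicates 2, 3 and 4 and 0.0571 without SOR replicate 2. At an unadjusted p under 0.05 in edgeR there were 9 of 49, beside 10.1% of all genes. Without overlap, 2 were higher (Dio2 and Daam2, beside 2.99% of all genes). Another 4 were lower (Fgfr2, Fjx1, Itih3 and Slc25a18, beside 3.96%). Fgfr2 had a log2 fold change of -0.26 (adjusted p = 0.122 in edgeR). Apart from Dio2, these genes were named after their values were seen. The potassium channel Kcnj10, a marker of mature astrocytes, had a log2 fold change of 0.03 and was chosen for mention after its value was seen.

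**Figure D3:**
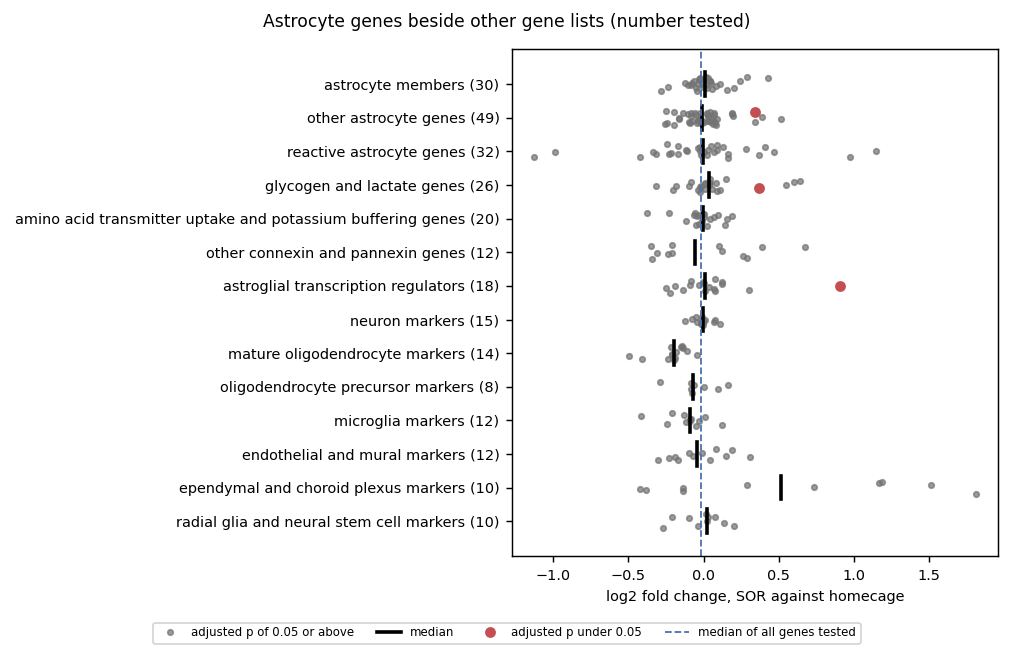
Log2 fold change, SOR against homecage (x axis), of the 30 astrocyte genes and of 13 other gene lists, with the number tested in brackets, the median of each list (black bars) and the median of all genes tested (dashed line). Red points mark Dio2, Slc2a1 and Hey2, the genes past an adjusted p of 0.05.

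The astrocyte genes were set beside markers of the other cells of the tissue. Of 15 neuron markers 4 were higher, with a median of -0.01, and the lowest p were those of Stmn2 with -0.07 (adjusted p = 0.591 in edgeR) and Wfs1 with 0.11 (adjusted p = 0.596 in edgeR). Of 14 mature oligodendrocyte markers 0 were higher and 14 lower, with a median of -0.20 and none past an adjusted p of 0.05, led by Aspa with -0.41 (adjusted p = 0.0909 in edgeR) and Opalin with -0.50 (adjusted p = 0.164 in edgeR). Their sums were 5992 to 6535 CPM in homecage and 4889 to 6381 CPM in SOR.

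Of 8 oligodendrocyte precursor markers 3 were higher, with a median of -0.07, led by Sox10 with -0.29 (adjusted p = 0.230 in edgeR) and Gpr17 with 0.16 (adjusted p = 0.400 in edgeR). The microglia markers were led by Cx3cr1 with -0.24 (adjusted p = 0.276 in edgeR) and P2ry12 with -0.21 (adjusted p = 0.321 in edgeR). The endothelial and mural markers were led by Cldn5 with -0.30 (adjusted p = 0.199 in edgeR) and Pdgfrb with -0.23 (adjusted p = 0.499 in edgeR). Of 10 ependymal and choroid plexus markers 6 were higher and the median was 0.51, and the lowest p were those of Ccdc153 with -0.38 (adjusted p = 0.432 in edgeR) and Tmem212 with -0.43 (adjusted p = 0.546 in edgeR).

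Libraries differed in how many of the 30 genes lay above their homecage mean, from 7 to 24 in the homecage group and from 10 to 23 in the SOR group. The median deviation of the 30 genes from the homecage mean, on the scale of log2(CPM + 0.5), was -0.03, -0.03, 0.04 and 0.03 in homecage replicates 1 to 4. It was 0.03, -0.04, -0.06 and 0.11 in SOR replicates 1 to 4. SOR replicate 4 thus stood above all others, with 21 of the 30 genes above all homecage values and 5 below all of them. In SOR replicate 3 only 3 genes were above all homecage values and 15 were below all of them, so the trained mice lay on both sides.

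The summed level of the 30 genes was 7556 to 7938 CPM in homecage and 7543 to 8303 CPM in SOR, the highest being SOR replicate 4. That library also had the lowest total count, 51406011, and the highest sum of the wider astrocyte list, 7430 CPM, and the part of depth or of the amount of astrocyte RNA in this was not tested. Without SOR replicate 4, 10 of the 30 genes were higher and the median log2 fold change was -0.04. With the other libraries left out in turn, 14 to 17 genes were higher.

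The spread among trained mice was the wider for 23 of 30 genes. The median coefficient of variation was 5.27% in homecage (range 1.66% to 12.9%) and 7.49% in SOR (range 3.26% to 16.9%). Genes such as Mfge8 and Gpr37l1, with 1.66% and 2.01% in homecage, had 15.8% and 11.0% in SOR. Fgfr3 went the other way, with 12.5% in homecage and 5.87% in SOR. All 30 genes were measured in the same libraries, so they are not separate observations of spread. The difference in spread was not tested, and it was not set beside that of all genes.

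**Figure D4:**
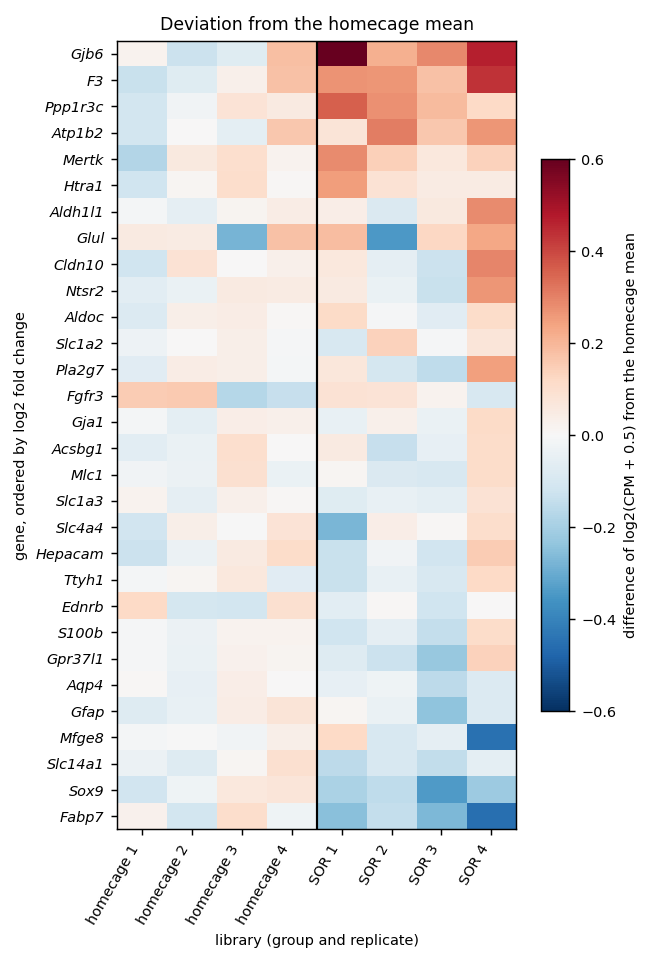
Deviation of each of the 30 astrocyte genes (rows, ordered by log2 fold change) from its homecage mean, on the scale of log2(CPM + 0.5), in the 8 libraries (columns). Red is higher and blue lower: the column of SOR replicate 4 is red for most genes, while that of SOR replicate 3 is mostly blue.

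Levels of different genes were compared as CPM per kilobase of annotated exon. In homecage mice Glul was the highest at 493 ± 63.7 CPM per kilobase (SD, n = 4), followed by Aldoc at 205 ± 7.89 and Slc1a2 at 179 ± 3.58. Gfap at 76.8 ± 3.87 and Slc1a3 at 73.3 ± 1.85 came next and did not differ beyond their spread. Then came Gpr37l1 at 59.6 ± 1.19 and S100b at 53.6 ± 1.04, so a receptor was in the upper part of the order. The lowest were Mertk at 7.46 ± 0.617, Slc14a1 at 3.58 ± 0.192 and Sox9 at 2.55 ± 0.160, and the transcription factor was thus the least abundant of the 30. Gjb6 was at 10.8 ± 1.04, near Hepacam, F3 and Cldn10 at 11.4, 11.4 and 10.3, while its partner Gja1 was at 19.0 ± 0.577.

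In SOR the level of Gjb6 was 14.5 CPM per kilobase and that of Gja1 19.2. The level per kilobase uses all annotated exons of a gene, so a gene with long untranslated exons that are rarely used reads too low. For 13 of the 30 genes the annotation overlaps another gene, among them Htra1 with Fgfr2, S100b with Dip2a and Slc1a2, Aqp4, Gfap and Mertk with noncoding genes on the opposite strand. The strand setting of the counting was not given in the sources used here, so reads of these neighbours may be part of those values. Of the 8 genes given sample by sample, Aqp4 and Mertk have such an overlap and Gjb6, Ppp1r3c, F3, Fabp7, Sox9 and Atp1b2 have none.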

How the data were processed

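Bulk RNA-seq of 8 libraries (4 homecage, 4 SOR) was analysed out of 34 samples in the series; the other assays were not analysed here. Per the study's methods, ribosomal RNA was depleted with a stranded total RNA kit, whereas the labels name polyA RNA. Reads were aligned to mm10 with STAR within bcbio-nextgen, and featureCounts is named as the counter, but the table is labelled as tximport output. The authors deposited these as estimated counts per gene, not normalized, and 52.6% of them are not whole. The quantifier behind them and its strand setting are not given in the sources used here. The structural RNAs Rn7s1 and Rn7s2 took 7.92% to 13.2% of counts, a share that scaling by library size alone does not adjust for.

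Groups were taken from the labels. Estimated counts were rounded, genes were kept by filterByExpr (22018 of 54532), and edgeR 4.0.16 in R 4.3.3 was fitted over all of them with upper-quartile factors, which the study's methods also use, and the quasi-likelihood F test. Fold changes, standard errors and 95% intervals come from that fit, the biological coefficient of variation was 14.1%, and calls were made below 0.05 for the adjusted p and beyond 1.4 for the fold. CPM are counts per 1000000 scaled counts, and single genes were also compared by a two-sided exact permutation test on log2(CPM + 0.5). Symbols, positions and exon lengths are from GENCODE M21 (GRCm38), which had 54495 of the genes, and upstream sequences from RefSeq (GRCm38.p6). Replicates of a group differed by more than counting noise (chi-square per degree of freedom 12.0 to 53.8), and precision beyond that is set by 4 mice per group. The fit was tested on simulated counts.

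The 30 genes, the 14 other lists (262 entries) and the motifs were chosen with earlier results of these data known, so no list was tested as a set. Values in every sample are given for genes past an adjusted p of 0.05 or without overlap between groups, filled up by lowest p to 8. From each other list the genes past an adjusted p of 0.05 are named, or else the 2 of lowest p. Genes marked as named or mentioned after their values were seen come on top of this rule. A gene that this rule would name is not reported here. Alternatives were TMM, RLE or library size scaling, 2 other filters, the likelihood ratio test, DESeq2 1.42.0, limma-voom (limma 3.58.1), 1 to 3 RUVs factors, a replicate block, counts not rounded, a pseudocount of 0.1, and each library left out.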

Additional observations from a re-analysis of the deposited data

Results flagged for a closer look

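Among 53 genes taken by the naming rule, in 106 groups of 4 libraries, 5 values lay far from the other 3 by Dixon's ratio. That is a number of the size that chance gives, since about 1 in 20 groups is marked so. Mlc1 in homecage replicate 3 was at 117.8 CPM, where the other homecage libraries were at 106.9 to 108.2 CPM. Htra1 in SOR replicate 1 was at 149.6 CPM, where the other SOR libraries were at 130.1 to 133.4 CPM. Hspb1 in SOR replicate 1 was at 14.03 CPM, where the others were at 4.63 to 5.35 CPM. Slc38a5 in homecage replicate 3 was at 3.53 CPM, where the others were at 2.45 to 2.53 CPM. Gpr17 in SOR replicate 3 was at 49.6 CPM, where the others were at 52.8 to 53.1 CPM.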

How the results depend on the processing

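Each fit was repeated under 13 alternatives with all libraries and 8 with 1 library left out. Of all genes, edgeR called 38 (68 without the fold rule). The likelihood ratio test called 105 (214) and DESeq2 112 (442), 2 RUVs factors gave 124 and the replicate block 40 without the fold rule, and the fits without 1 library gave 22 to 38 (30 to 55). Of the 30 genes, 3 passed an adjusted p of 0.05 in DESeq2, 1 in the likelihood ratio test and 1 with 3 RUVs factors, and 0 in every other alternative. The cause was not tested, except that fits without a library hold fewer mice.

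Of the 30 genes, 19 kept their direction throughout and 11 changed it at least once, all with log2 fold changes near 0. Mlc1 was at 0.0068 with TMM scaling, 0.0081 with RLE scaling and 0.0081 with DESeq2. Acsbg1 was at 0.017, 0.018 and 0.018 in these, at 0.0030 with library size scaling and at 0.00045 with the filter of more than 5 counts in 2 samples. Without 1 library, the log2 fold change ranged from -0.0073 to 0.068 for Slc1a2, -0.027 to 0.17 for Glul, -0.021 to 0.036 for Gja1, -0.060 to 0.021 for Mlc1, -0.098 to 0.0060 for Hepacam, -0.074 to 0.048 for Slc4a4, -0.044 to 0.11 for Cldn10, -0.046 to 0.039 for Acsbg1, -0.038 to 0.072 for Fgfr3, -0.042 to 0.098 for Ntsr2 and -0.065 to 0.076 for Pla2g7. The pseudocount of 0.1 moved no exact p across 0.05.

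The labels do not say whether same-numbered mice were handled together, and correlations between libraries cannot exclude it. Same-numbered libraries had correlations of 0.152, -0.059, -0.074 and -0.099 in their deviations from the group means, where other pairs had -0.307 to 0.234. The replicate block changed no call among the 30 genes. With 4 mice per group, a difference such as that of Gjb6 (95% interval 14.5% to 57.5%) is bounded only loosely, and genes at the level of Sox9 rest on as few as 457 counts.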
